A study of Mus musculus with 2 samples.

Results

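DNase-seq locates DNA that is open to the nuclease DNase I. It was run on midbrain of newborn mice (strain B6NCrl, 0 days old, males and females pooled, recorded as healthy), with 1 group of 2 biological replicates and no treatment, genotype or control group. Both replicates trace to 1 pooled donor entry, and nothing in the labels says that their animals were different. For each replicate the authors' lists hold peaks of 150 bp and broader stretches of open DNA, known as hotspots, in mm10 coordinates. The subject here is the distal sites that only the second library yielded: 4250 of the 119469 autosomal peaks of replicate 2 (3.56%). They are called members below. They were chosen by 3 measured properties: an authors' signal of 18 or more, a midpoint over 500 bp from every transcription start site (TSS) in GENCODE M21, and not 1 bp of overlap with any of the 222935 autosomal peaks of replicate 1. Of the 39186 distal replicate 2 peaks with a signal of 18 or more, 10.8% met the last condition. The other 34936, which overlap a replicate 1 peak, are the background for every comparison. The signal is a whole number per peak that the authors deposited without a definition in the sources used here, and it was not scaled between libraries.

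Distal open sites are mostly enhancers, insulators and other regulatory elements. Sequence-specific factors hold nucleosomes off such DNA, and which sites are open differs between cell types far more than for promoters. CTCF, a zinc finger protein that anchors chromatin loops, holds open many sites that most tissues share. In developing midbrain, enhancers are bound among others by OTX and other homeodomain proteins, GATA factors of GABAergic neurons, bHLH factors on E-boxes, ZIC zinc fingers, RFX factors of ciliated cells and NFI factors of glial differentiation. In bulk tissue, a site open in few cells and a site less open in every cell cannot be told apart.

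Sequences of 17 of the peaks are printed first, because the results turn on what these DNA stretches hold. They were read from the RefSeq copy of mm10, plus strand, 5′ to 3′, and each line names the nearest protein-coding gene or the row it belongs to. Capitals mark matches to the motifs whose shares differed between members and background. The 3 members of highest signal, with 78, 77 and 76, came first.
Crlf2, chr5:109557456-109557605: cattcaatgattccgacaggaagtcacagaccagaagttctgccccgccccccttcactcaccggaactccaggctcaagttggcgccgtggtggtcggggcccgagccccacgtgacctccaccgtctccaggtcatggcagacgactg
Cactin, chr10:81320456-81320605: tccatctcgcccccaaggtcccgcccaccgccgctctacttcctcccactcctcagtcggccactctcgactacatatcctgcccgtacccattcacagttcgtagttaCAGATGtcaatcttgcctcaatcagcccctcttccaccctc
Tomm40, chr7:19715916-19716065: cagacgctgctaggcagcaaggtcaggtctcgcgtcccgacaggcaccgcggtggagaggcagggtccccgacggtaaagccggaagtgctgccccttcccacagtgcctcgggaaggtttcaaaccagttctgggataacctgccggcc
All 3 lay within 130 bp of a replicate 1 peak, and the second holds the E-box CAGATG. The next 9 are the strongest printable members with a motif named in the results, for CTCF, NFI, RFX, the homeodomain motif, the E-box CAGCTG, NRF1, GATA, ZIC and OTX in turn.
Cenpf, chr1:189675456-189675605: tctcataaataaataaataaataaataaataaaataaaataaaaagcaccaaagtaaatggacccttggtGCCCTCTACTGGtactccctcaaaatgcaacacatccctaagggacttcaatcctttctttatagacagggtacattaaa
Ppm1h, chr10:122884476-122884625: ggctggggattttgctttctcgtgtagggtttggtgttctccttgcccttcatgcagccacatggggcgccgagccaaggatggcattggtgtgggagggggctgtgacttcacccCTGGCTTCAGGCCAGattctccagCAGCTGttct
Ptf1a, chr2:19414576-19414725: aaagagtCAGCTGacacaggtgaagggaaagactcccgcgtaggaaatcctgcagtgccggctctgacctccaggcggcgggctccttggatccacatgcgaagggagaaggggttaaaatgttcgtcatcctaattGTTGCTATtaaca
Tmem33, chr5:67231996-67232145: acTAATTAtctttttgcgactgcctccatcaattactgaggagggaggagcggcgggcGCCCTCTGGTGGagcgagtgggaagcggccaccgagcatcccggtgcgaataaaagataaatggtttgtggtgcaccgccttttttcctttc
Rprd2, chr3:95819656-95819805: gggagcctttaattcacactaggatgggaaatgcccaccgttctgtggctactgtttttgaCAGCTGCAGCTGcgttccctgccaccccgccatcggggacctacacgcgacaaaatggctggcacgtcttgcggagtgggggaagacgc
Zfp239, chr6:117879876-117880025: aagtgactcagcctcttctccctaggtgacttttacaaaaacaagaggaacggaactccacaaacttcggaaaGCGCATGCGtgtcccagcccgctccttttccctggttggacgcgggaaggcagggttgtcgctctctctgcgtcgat
Fam241b, chr10:62101296-62101445: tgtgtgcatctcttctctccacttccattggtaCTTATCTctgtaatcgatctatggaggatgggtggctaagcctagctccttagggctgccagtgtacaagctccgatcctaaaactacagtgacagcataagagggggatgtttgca
Slc25a23, chr17:57060536-57060685: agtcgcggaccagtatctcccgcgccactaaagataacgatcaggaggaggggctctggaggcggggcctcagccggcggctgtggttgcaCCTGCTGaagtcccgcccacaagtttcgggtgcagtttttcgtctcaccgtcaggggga
Trappc9, chr15:73067416-73067565: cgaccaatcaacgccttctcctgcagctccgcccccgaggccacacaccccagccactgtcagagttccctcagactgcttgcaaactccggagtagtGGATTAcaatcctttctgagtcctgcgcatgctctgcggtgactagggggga
For contrast, the background peak of highest signal with the CTCF motif had a signal of 80.
Eef1b2, chr1:63181176-63181325: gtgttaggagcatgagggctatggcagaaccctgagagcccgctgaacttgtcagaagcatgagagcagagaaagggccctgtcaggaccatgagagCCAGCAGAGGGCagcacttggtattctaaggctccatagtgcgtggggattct
The next 3 are the strongest members in rows of adjacent members at Mir124a-2, Sox2 and Sim1.
Mir124a-2, chr3:17791536-17791685: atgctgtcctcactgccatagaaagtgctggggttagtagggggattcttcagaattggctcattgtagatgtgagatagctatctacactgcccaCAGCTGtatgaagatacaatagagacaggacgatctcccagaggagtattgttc
Sox2, chr3:34652516-34652665: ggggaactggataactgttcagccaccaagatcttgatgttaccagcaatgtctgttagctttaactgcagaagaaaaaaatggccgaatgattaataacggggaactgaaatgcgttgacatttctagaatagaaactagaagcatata
Sim1, chr10:50897496-50897645: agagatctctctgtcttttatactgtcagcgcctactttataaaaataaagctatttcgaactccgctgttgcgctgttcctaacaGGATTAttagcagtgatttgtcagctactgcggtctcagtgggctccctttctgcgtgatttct
The last, with a signal of 47, is a strong member outside every replicate 1 hotspot, and it is low-complexity DNA rich in A and T.
Rorb, chr19:19442436-19442585: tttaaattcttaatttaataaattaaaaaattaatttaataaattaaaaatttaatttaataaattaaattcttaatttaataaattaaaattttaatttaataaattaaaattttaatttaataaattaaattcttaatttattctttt

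As facts of the series, replicate 1 had 228440 deposited peaks and replicate 2 had 122838, and the autosomal signal had a median of 44 (quartiles 32 and 66) in replicate 1 and 18 (12 and 29) in replicate 2. Read totals were not used here and depth is unknown, so the limit of 18 sits at the median of one library and far below that of the other. The tissue label was checked at promoters: a peak within 500 bp of a TSS was found in replicate 1 at 11 and in replicate 2 at 7 of 15 midbrain and isthmus patterning genes. The same counts were 9 and 7 of 14 forebrain genes and 9 and 2 of 21 posterior Hox genes. This check thus did not clearly set midbrain apart from forebrain in either replicate. The midbrain homeobox gene En2 had promoter signals of 112 and 52 and Otx2 of 73 and 27, in replicates 1 and 2. Fgf8 and Fgf17, signals of the isthmus, had none in either.

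Members had lower signals than the background. All were at or above the library's median of 18, which the rule fixes. Their signal had a median of 20 (quartiles 19 and 23.8, highest 78), against 27 (21 and 37, highest 93) in the background. As the rule used overlap, the share of distal peaks without a replicate 1 peak is a description: it went from 25.1% (95% Wilson interval 24.1 to 26.2) at signals of 18 and 19 to 1.03% (0.713 to 1.48) at 50 or more. Of the 2720 distal peaks with a signal of 50 or more, 28 were members. At the limit itself nothing broke off: the share was 34.6% at a signal of 16 and 29.3% at 17, just outside, and 26.1% at 18 and 23.99% at 19, just inside. At the overlap limit, 363 members lay 10 bp from a replicate 1 peak and 443 background peaks overlapped one by 10 bp, the smallest steps that the 20 bp grid of peak starts gives. At the distance limit, 276 members lay within 100 bp beyond it, and 402 peaks that met the other conditions lay within 100 bp inside it. Among promoter peaks of the same signal, 12.3% had no replicate 1 peak.

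**Figure D1:**
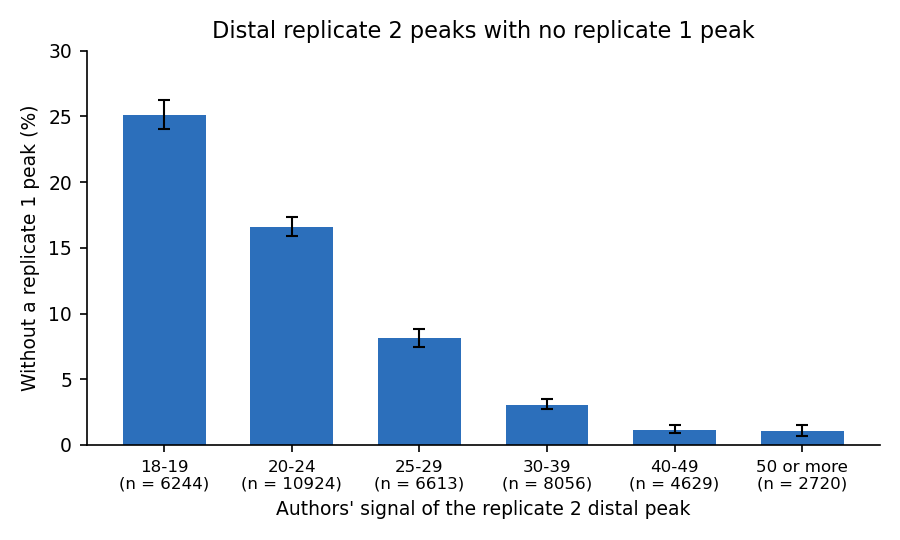
Share of distal replicate 2 peaks that have no replicate 1 peak (y axis, percent; bars, with 95% Wilson intervals) by the authors' signal of the peak (x axis; n is the number of distal peaks in each class). The share is highest, at 25.1%, for signals of 18 and 19 and lowest, at 1.03%, for 50 or more.

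The name of the set held at the level of peaks but not at the level of hotspots. Of the 4250 members, 2334 (54.9%, Wilson interval 53.4 to 56.4) overlapped a replicate 1 hotspot, so replicate 1 was called open there over a wider interval without a peak at that spot. The other 1916 (45.1%) lay outside every replicate 1 hotspot. Every member, and every background peak, lay in a replicate 2 hotspot. The gap from a member to the nearest replicate 1 peak had a median of 150 bp (quartiles 70 and 470). It was 50 bp or less for 1010 members (23.8%), and 2183 (51.4%) had a replicate 1 peak within 150 bp, the width of a peak. At the far end, 729 members (17.2%) lay over 1000 bp away, 35 of them over 20000 bp. The nearest replicate 1 peak had a median signal of 66. These distances and hotspots come from the same contrast as the rule and support nothing further, and splitting members by replicate 1 hotspots was chosen after their values were seen.

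**Figure D2:**
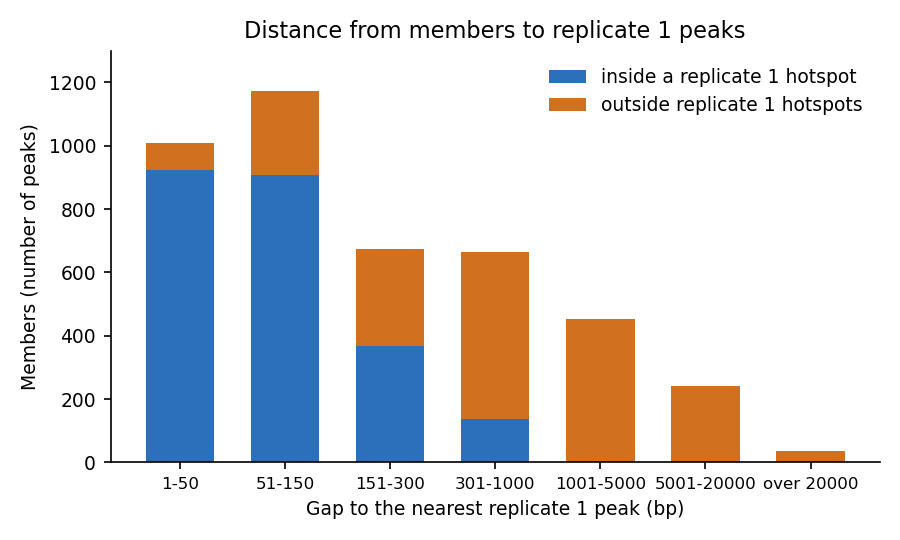
Number of members (y axis) by the gap in bp to the nearest replicate 1 peak (x axis), split into members inside a replicate 1 hotspot and outside all of them. Of the 1010 members within 50 bp, 924 were inside a hotspot, and beyond 1000 bp 0 were.

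Many members stood beside a site that both libraries had. For 2588 members (60.9%, Wilson interval 59.4 to 62.4) the nearest replicate 1 peak was itself overlapped by another replicate 2 peak, and for 1824 of them (42.9% of members) that peak was stronger than the member. Such an overlap, by a replicate 2 peak of any strength, was found for 57.9% of the members within 150 bp of a replicate 1 peak, 77.0% between 150 and 1000 bp and 40.5% beyond. Another replicate 2 peak lay within 1000 bp of 81.7% of members and 43.3% of background peaks. The difference of 38.4 percentage points (95% Newcombe interval 37.1 to 39.7) was 36.4 (35.0 to 37.7) against background standardized to the members' signals. For members over 1000 bp from a replicate 1 peak the share was 42.2%, close to that of the background. Here and below, intervals cover counting error only, and regions are not independent replicates.

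The 12 members of highest signal, from 63 to 78, all lay inside replicate 1 hotspots of the strongest class, 10 to 130 bp from a replicate 1 peak with a signal of 104 to 145. The first lay in an exon of Crlf2, a cytokine receptor gene, with a signal of 78 in replicate 2. It lay 30 bp from a replicate 1 peak of signal 133 that no replicate 2 peak overlapped. The second lay 572 bp from a TSS of Cactin, with a signal of 77, 90 bp from a replicate 1 peak of 144 that a replicate 2 peak of 78 also held. The third lay 553 bp from a TSS of Tomm40, which encodes the channel of the outer mitochondrial membrane translocase. Its signal was 76, and the replicate 1 peak 130 bp away had 145. In these 12 cases both libraries had strong peaks within a peak's width of each other. Next came members in an intron of Clec11a and 6287 bp from a TSS of Trappc9, both with 72, the latter 10 bp from a replicate 1 peak of 139. An intergenic member with 69 followed, whose nearest coding gene, the chromatin remodeller gene Chd2, has its TSS 76561 bp away. Intergenic members with 68 each lay 22974 bp from a TSS of the kinase gene Rps6ka1 and 14598 bp from one of Zfp395. Lrrc4c, which encodes a netrin-G ligand of synapses, had 65. Members with 63 lay nearest to the Fc receptor gene Fcgr3, Cfap126 and the kinase gene Oxsr1, the last in an intron of Slc22a14. For 5 of the 12 (nearest to Crlf2, Tomm40, Clec11a, Chd2 and Zfp395) no replicate 2 peak overlapped the nearest replicate 1 peak.

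Outside replicate 1 hotspots the strongest members were of another kind. The first 5 had signals of 48, 47, 43, 43 and 42, and all were intergenic, 1430 to 20390 bp from a replicate 1 peak. They lay nearest to Adgrl2 (48 and 43, overlapping each other), to Rorb (47), Slc38a2 (43) and to the cardiac homeobox gene Nkx2-5 (42). Their GC content ran from 2.67% at Rorb to 24.7% at Slc38a2, and 67.3 to 100% of their bases are soft-masked, which marks interspersed and simple repeats. As the Rorb sequence above shows, such DNA consists mostly of A and T. Depth, alignment and mappability at such DNA were not tested.

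Some members lay side by side. Linking members no more than 5000 bp apart, a rule chosen after the data were seen, gave 21 rows of 5 or more, which held 194 members (4.56%), while 2977 (70.0%) stood alone. Rows are built from replicate 2 peaks that lack a replicate 1 peak, so the choice favours an excess of replicate 2 peaks between their ends. The counts below only describe its size. A TSS lay inside 16 of the rows, and in 10 no member touched a replicate 1 hotspot. With links of 2000 bp there were 11 rows and with links of 10000 bp there were 23.

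The row with the most members held 29 over 21.1 kb at Mir124-2hg, the host gene of Mir124a-2, a copy of the neuronal microRNA miR-124 (chr3:17781936-17803065). Their signals ran from 18 to 36 with a median of 24. The interval had 47 replicate 2 peaks and 9 replicate 1 peaks, and 1 of the 29 members lay in a replicate 1 hotspot. A row of 17 lay at the long noncoding gene Gm30340 on the same chromosome (chr3:17318876-17333325; signals 18 to 31), with 36 peaks of replicate 2 and 7 of replicate 1. For both rows the nearest protein-coding gene is Cypt12, at least 145419 and 615159 bp away. Rows at 2 further microRNA genes were picked out after they were seen. At Mir9-2, a copy of miR-9, 15 members stood among 60 replicate 2 and 48 replicate 1 peaks (chr13:83718936-83749425), and 12 of the 15 lay in a replicate 1 hotspot. At Mir125b-1, 9 members stood among 37 and 18 peaks (chr9:41578476-41596945).

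Several other rows lay at transcription factor genes, grouped here after the rows were seen and with no test. At Zfhx3, a zinc finger homeobox gene, 20 members with signals from 18 to 32 lay in chr8:108696496-108714005, with 31 replicate 2 peaks and 2 replicate 1 peaks. At Sox2, which keeps neural progenitors undifferentiated, 13 members with signals of 18 to 27 lay in chr3:34649576-34663085, with 23 peaks against 3. No background peak lay among them. At Sim1, a bHLH-PAS factor gene of hypothalamic neurons, 10 members with signals of 18 to 27 lay in chr10:50896476-50903985, with 17 peaks against 1. At the Iroquois homeobox gene Irx1, 9 members had signals of 20 to 26, with 14 peaks against 2. The 5 members at Twist1, a bHLH gene of mesenchyme and neural crest, had signals of 21, 19, 23, 19 and 18 in replicate 2. Between them replicate 1 had 0 peaks, and its nearest peak, with a signal of 42, was 2170 to 13450 bp from each of them. The 5 members at Zfhx4 had 26, 22, 24, 26 and 22, with 20 peaks against 2. Further rows lay at the nuclear receptor gene Nr2f1 and the corepressor gene Runx1t1, with 5 and 6 members.

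The remaining rows lay at genes of various roles. Tuba1a, which encodes the main alpha-tubulin of young neurons, had 7 members of signal 19 to 41, with 14 replicate 2 and 7 replicate 1 peaks. The RNA-binding protein gene Celf4 had 6 members, and the growth cone gene Basp1, the semaphorin receptor gene Nrp1 and Slc17a6, which encodes the vesicular glutamate transporter VGLUT2, had 5 each. At Slc17a6 the member signals were 22, 26, 25, 25 and 27. The most compact row, at Gm17750, held 6 members in 0.83 kb with no replicate 1 peak between its ends. Several of these members overlapped one another, and their medians were 31% for GC content and 38.3% for soft-masked bases. Replicate 1 peaks with signals of 88 and 45 lay beside the row, 70 to 450 bp from each member. Bahcc1 had 7 members, Stox2 had 5, and the last row of 5 had Nfe2l3 as its nearest coding gene, at least 248599 bp away. At Twist1 and Gm17750 replicate 1 had no peak between the row's ends, but its nearest peaks were much closer to the members at Gm17750.

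**Figure D3:**
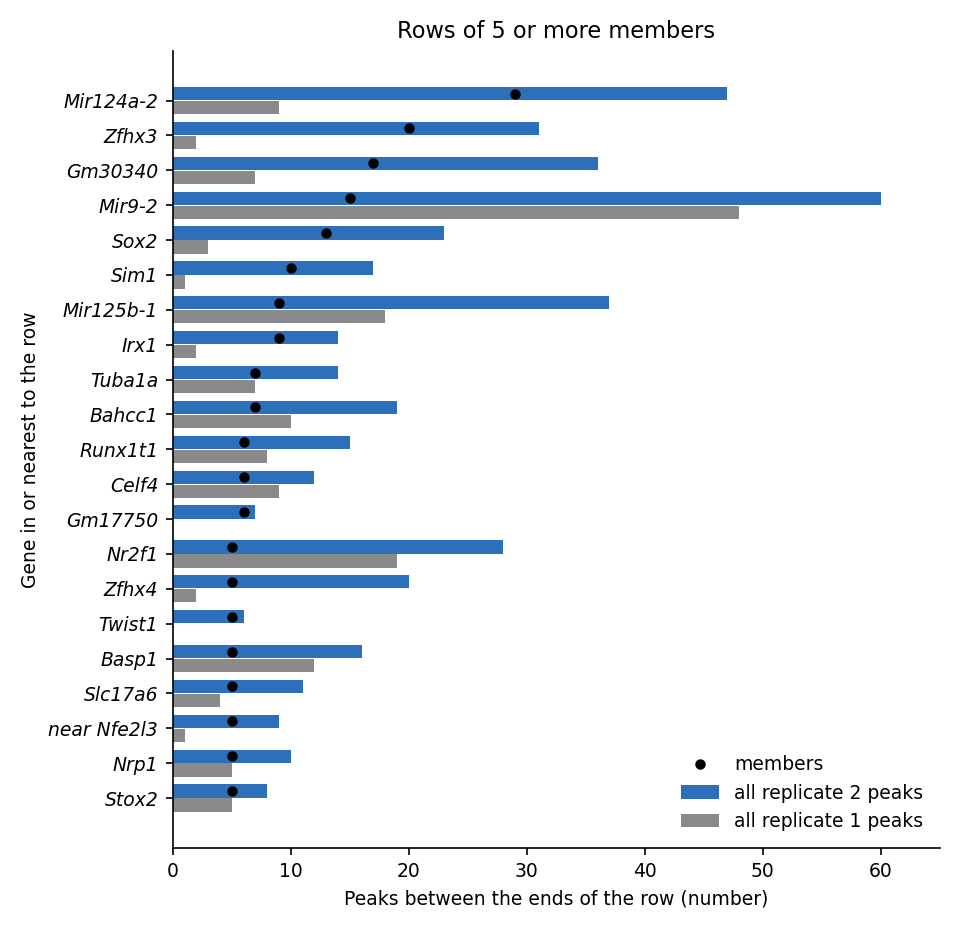
For each of the 21 rows (y axis, named by a gene inside or nearest to it), the number of replicate 2 peaks and replicate 1 peaks of any signal between the row's ends (x axis; bars) and the number of members (points). The rows were chosen as strings of members, which favours the direction of this contrast without strictly fixing it. Its size differed between rows, with 47 against 9 at Mir124a-2, 31 against 2 at Zfhx3, 60 against 48 at Mir9-2 and 12 against 9 at Celf4.

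Members lay closer to an annotated TSS than the background did. The distance to the nearest TSS had a median of 5260 bp (quartiles 1117 and 20616) against 8448 bp (2478 and 22850). A TSS lay within 2500 bp of 38.2% of members and 25.2% of background peaks, a difference of 12.99 percentage points (11.5 to 14.5) that was 13.02 (11.4 to 14.6) with standardized background. The share was 44.2% for members inside and 30.8% for members outside replicate 1 hotspots. Among the 729 members over 1000 bp from a replicate 1 peak it was 18.5%, below the background, and their median distance was 9388 bp. For protein-coding TSSs alone the order depended on the quantile: the median was 14145.5 bp for members and 16331 bp for background, but the upper quartile was 75675 against 53515.5 bp. Members outside replicate 1 hotspots had a median of 21637 bp. By midpoint, 410 members (9.65%) were exonic, 2161 (50.8%) intronic and 1679 (39.5%) intergenic, in any annotated gene. Exons held 1.65 points more members than background (0.747 to 2.61), and 1.84 (0.872 to 2.80) after standardizing. The intergenic share was lower, with a difference of -4.61 points (-6.16 to -3.05). The difference was -1.69 (-3.31 to -0.0611) after standardizing, and -0.717 (-2.72 to 1.29) when both sets were kept over 2500 bp from a TSS, an interval that includes 0. The intron share was 2.97 points higher (1.38 to 4.56), and -0.15 (-1.81 to 1.51) after standardizing, so the interval included 0 at equal signal.

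The DNA of members held fewer G and C. Mean GC content was 48.4% against 51.3%, a difference of -2.98 percentage points (-3.30 to -2.66), or -2.30 (-2.62 to -1.98) with standardized background. The difference lay with the members outside replicate 1 hotspots, whose median was 46.0%. Members inside had 51.3%, the same median as the background, and the means of the inside and outside members differed by 6.69 points (6.10 to 7.28). Very low GC was rare in both sets but far more common in members: 145 of 4250 (3.41%) had under 30%, against 75 of 34936 (0.215%), a difference of 3.20 points (2.69 to 3.79). Of those 145, 136 lay outside replicate 1 hotspots. The limit of 30% was chosen after the data were seen. At the other end, 10.9% of members and 13.4% of background peaks had a GC content of 60% or more.

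**Figure D4:**
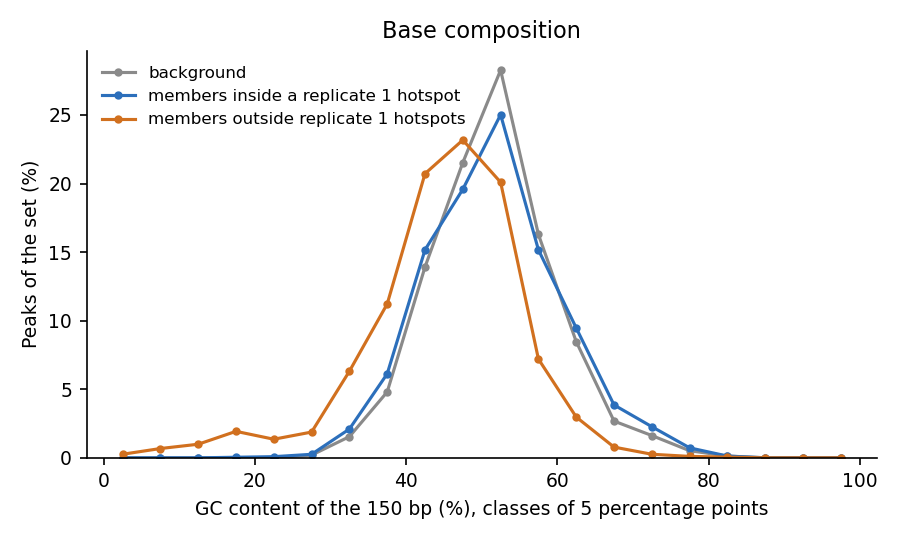
GC content of the 150 bp of each peak (x axis, classes of 5 percentage points) and the percentage of each set in a class (y axis), for background peaks and for members inside and outside replicate 1 hotspots. The curve of the outside members lies to the left of the others and has a tail under 30%, where 7.10% of them fall, against 0.215% of the background.

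Repeats followed the same split. Soft-masked bases made up a mean of 11.9% of a member and 8.61% of a background peak, a difference of 3.32 points (2.71 to 3.94). Peaks that were soft-masked over 50% or more of their length were 231 members (5.44%) and 823 background peaks (2.36%). Among members they were 9.13% outside and 2.40% inside replicate 1 hotspots, a difference of -6.73 points inside minus outside (-8.21 to -5.34). Exact repetition was uncommon: the central 31 bases had a second copy in the assembly for 60 members (1.41%) and 455 background peaks (1.302%), a difference of 0.109 points (-0.228 to 0.526). Among members it was 2.19% outside and 0.771% inside replicate 1 hotspots. CpG dinucleotides numbered 3.66 per member and 3.65 per background peak, a difference of 0.0119 (-0.105 to 0.128) that became 0.401 (0.285 to 0.516) with standardized background.

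The replicate 2 hotspot under a peak gave opposite answers with and without standardizing. It was of the strongest class, a deposited −log10 q of 100, for 20.4% of members and 46.7% of background peaks. The difference of -26.3 points (-27.6 to -24.9) turned to 3.59 (2.42 to 4.76) when background was standardized to the members' signals.

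Motifs were searched on both strands of each 150 bp as 28 consensus sequences, with 95% intervals over all 28 together. A match is a string of letters and not a bound site. The contrast was greatest for CTCF, whose motif was in 13 members (0.306%) and 4510 background peaks (12.9%), a difference of -12.6 percentage points (-13.2 to -11.9). The background share was 42.2 times that of members. Background peaks of the members' signals held it at 6.71%, and the difference was then -6.41 points (-6.98 to -5.84). It was in 7 of 1916 members outside and 6 of 2334 inside replicate 1 hotspots (0.365% and 0.257%), and the interval of that difference included 0. The strongest printable one, in an intron of the centromere protein gene Cenpf, had a signal of 42, 10 bp from a replicate 1 peak. The strongest of all, with 56, lay 13809 bp from a TSS of Cystm1. CTCF, the factor of shared loop anchors, thus had its motif in many background peaks and in few members.

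Motifs of ciliary and neural factors were also less frequent in members. The RFX motif (GTTGCCAT or GTTGCTAT) was in 86 members (2.02%) against 5.68%, a difference of -3.66 points (-4.36 to -2.78), and -3.57 (-4.42 to -2.72) after standardizing. RFX factors drive genes of cilium assembly. Among the 729 members over 1000 bp from a replicate 1 peak, the RFX share was 5.08% and its difference from background, -0.605 points, had an interval that included 0 (-2.64 to 2.60). In the same members homeodomain (3.06, 0.80 to 6.48), OTX (2.70, 0.26 to 6.27) and the E-box CATATG (2.89, 0.94 to 6.02) were more frequent than in the background. CTCF (-12.2, -13.0 to -10.3), ZIC (-4.52, -6.77 to -1.13) and the E-boxes CAGATG (-6.27, -8.94 to -2.51) and CAGCTG (-4.00, -6.83 to -0.0944) were less frequent. These differences for the far members were not standardized to signal or GC content. Their mean GC content was 42.9%, against 51.3% in the background. The strongest RFX member, with 44, lay 31012 bp from a TSS of Ptf1a, a bHLH gene of GABAergic neurons in cerebellum and spinal cord, and the second, with 32, nearest to Zmiz1. The ZIC motif (CAGCAGG) was in 237 members (5.58%) against 10.4%, or -4.85 points (-5.97 to -3.54). Some forms of the CTCF consensus contain this motif. In peaks without CTCF the difference was -3.50 (-4.63 to -2.20), and -3.45 (-4.73 to -2.17) after standardizing. Its strongest members lay in an intron of Slc25a23 (57) and nearest to Lsm11 (48).

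Both common E-boxes, sites of bHLH factors of neurogenesis, were less frequent too. CAGATG was in 444 members (10.4%) against 14.2%, a difference of -3.78 points (-5.27 to -2.12), and CAGCTG in 438 (10.3%) against 12.9%, or -2.61 (-4.09 to -0.963). The standardized differences were -4.28 (-5.95 to -2.61) and -3.44 (-5.10 to -1.78). The strongest members with CAGATG lay nearest to Cactin (77) and the histone gene Hist2h2bb (57), and those with CAGCTG nearest to Rprd2 (57) and Cystm1 (56). With background standardized to the members' GC content, an alternative added after the data were seen, the CAGCTG interval included 0 (-2.58 to 0.487). The NFI motif was in 17 members (0.400%) against 0.907%, or -0.51 points (-0.779 to -0.0474), and its sign turned at a signal limit of 24 (0.0743). It was led by members in an intron of Ppm1h (47) and near Crabp2 (42). NRF1 (GCGCATGCG), a motif of CpG-rich promoters, was in 3 members against 130 background peaks (0.0706% and 0.372%), a difference of -0.302 points (-0.431 to -0.00265) that lost its call under 9 of 14 alternatives. Its strongest members lay near Zfp239 (59) and in an intron of Dennd2a (23).

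The motifs that were more frequent in members did not keep that call at equal signal. The homeodomain motif (TAATTA) was in 190 members (4.47%) against 3.11%, a difference of 1.36 points (0.421 to 2.50). The standardized difference was 0.539 (-0.550 to 1.63), and with background of the members' GC content it was 0.292 (-1.34 to 1.93). OTX (GGATTA), the motif of the midbrain factor OTX2 and its relatives, was in 238 members (5.60%) against 4.29%, or 1.31 points (0.243 to 2.56), and 0.948 (-0.254 to 2.15) standardized. With background of the members' GC content OTX kept its call, narrowly, at 1.17 (0.0107 to 2.33). The motif of the GATA factors, AGATAAG, was in 79 (1.86%) against 1.19%, or 0.665 points (0.0857 to 1.45), and 0.498 (-0.202 to 1.20) standardized. For GATA the difference with background of the members' GC content was 0.562 (-0.117 to 1.24). The sign of GATA turned at a signal limit of 24 (-0.125), and those of OTX (-0.672) and the homeodomain motif (-0.00819) at 30. The strongest homeodomain members, near Tmem33 (39) and Gm3415 (31), lay 6330 and 3790 bp from a replicate 1 peak. The strongest OTX members lay near Trappc9 (72) and in an intron, nearest to Hsd17b12 (44), and the strongest GATA members near Fam241b (33) and Khdrbs1 (32). Against the full background 3 motifs were thus higher, 7 lower and 18 neither. For members outside replicate 1 hotspots alone, 11 motifs were called against the full background, without standardizing, and 5 of them were higher. Against the standardized background 0 were higher and 10 lower, with AP-1, CRE and REST added. The standardized interval is a normal one, which is rough for rare motifs such as CRE and NRF1, with 4 and 3 members. For CRE the interval without standardizing included 0 (-0.437 to 0.0159). The call of REST carries no weight, since its motif was in 0 of 4250 members, for which the standardized interval allows no error. That count allows a share of up to 0.0706%, above that of the background (19 peaks, 0.0544%).

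**Figure D5:**
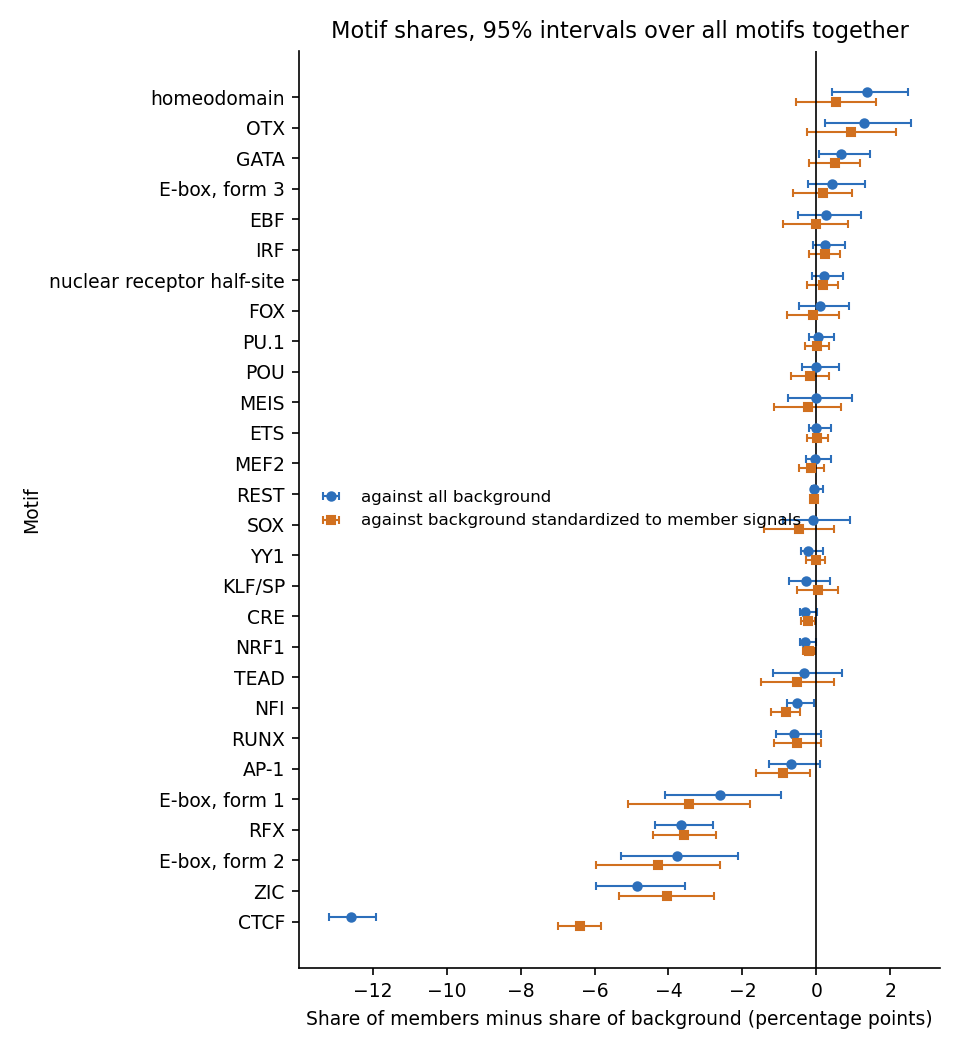
Share of members minus share of background holding each of 28 motifs (x axis, percentage points; motifs on the y axis), with intervals at 95% over all motifs together, against all background peaks and against background standardized to the members' signals. CTCF stands lowest at -12.6 and -6.41, and the intervals of homeodomain, OTX and GATA include 0 only in the standardized comparison; E-box form 1 is CAGCTG, form 2 is CAGATG and form 3 is CATATG.

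Within the members, 2 motifs differed between those inside and outside replicate 1 hotspots. The E-box CATATG was in 1.33% of members inside and 3.601% outside, a difference of -2.27 points (-3.95 to -0.80). The EBF motif (CCCNNGGGA), of early B-cell factors that also act in neuronal differentiation, was in 3.86% inside and 1.67% outside, a difference of 2.19 (0.589 to 3.79). CATATG holds 4 A and T letters among its 6, while the fixed letters of the EBF motif are mostly G and C. The outside members have the lower GC content given above. The part of GC content in either difference was not tested.

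By nearest protein-coding TSS, the 4250 members fell to 2575 genes, of which 1716 had 1 member and 89 had 5 or more. The 10 leading genes took 197 members (4.64%). In each case the number of members is given out of the distal replicate 2 peaks of signal 18 or more nearest to the gene, and 10.8% is the share over all genes. The genes were picked for having the most members, several of them at the rows above. Shares above 10.8% therefore follow in part from the choice. Cypt12, the nearest coding gene to the Mir124a-2 interval, came first with 49 of 70 (70%). Zfhx3 had 31 of 68 (45.6%), Sox2 18 of 35 (51.4%), Sim1 12 of 13 (92.3%), Irx1 13 of 19 (68.4%) and Zfhx4 12 of 17 (70.6%). Sorl1, an endosomal sorting receptor gene and the nearest coding gene to the Mir125b-1 row, at least 377716 bp away, had 18 of 58 (31.03%). Mef2c, a neuronal MADS-box factor gene at least 66123 bp from the Mir9-2 row, had 17 of 59 (28.8%) and Zfp608 16 of 70 (22.9%). Bahcc1 had 11 of 41 (26.8%), and Basp1 and the neuronal repressor gene Myt1l also had 11, of 44 and 42.

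Gene lists label genes and not cells, and the same count is given for each, with no test. A member counts for the nearest coding gene at any distance, up to 499286 bp for Sox2 and 257535 bp for Barhl2. Progenitor genes had 30 members among 103 distal peaks (29.1%, Wilson interval 21.2 to 38.5), of which Sox2 gave 18, Id4, an inhibitor of bHLH factors, 6 and Sox1 3. Pan-neuronal genes had 40 of 182 (22.0%, 16.6 to 28.5), with Myt1l 11, Celf4 9 and the growth cone gene Gap43 4. Midbrain and isthmus patterning genes had 19 of 80 (23.8%, 15.8 to 34.1), led by Pou4f1 with 4 of 5, Otx2 with 3 of 5 and Meis2 with 2 of 14. Cerebellum and rhombic lip genes had 18 of 58 (31.03%, 20.6 to 43.8), with Barhl2 5, Lhx5 4 and Zic2 3. The share was above that over all genes in 17 of the 20 lists, and the interval lay above it in 9, so these 4 lists do not stand alone in this. List shares were not standardized to signal or to distance from a TSS, in both of which members and background differ. The intervals take neighbouring peaks of 1 locus as independent and are too narrow where a row supplies many members. The row at Sox2 holds 13 and the row at Twist1, a meningeal and fibroblast gene below, holds 5. In the 4 lists of this paragraph, in the order given, 22 of 30, 19 of 40, 15 of 19 and 12 of 18 members lay outside replicate 1 hotspots.

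The other neural lists had shares from 12.99% to 20.8%. GABAergic genes had 13 of 69 (18.8%, 11.4 to 29.6), among them Tal2, a bHLH factor of midbrain GABAergic fate, with 4 of 5 and Gad2, a glutamate decarboxylase gene, with 2 of 10. Dopaminergic genes had 10 of 77 (12.99%, 7.21 to 22.3), with 4 of 7 at En1 and 2 of 4 at Foxa1. Astrocyte genes had 16 of 112 (14.3%, 8.99 to 22.0), with Sox9 5, Nfib 3 and Aldh1l1 2, and 1 of the 16 lay outside replicate 1 hotspots. Oligodendrocyte genes had 8 of 45 (17.8%), with 4 at Mbp and 2 each at Nkx2-2 and Pdgfra. Forebrain genes had 15 of 72 (20.8%, 13.1 to 31.6).

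Lists of other cell types and organs rested on few peaks. Meningeal and fibroblast genes had 12 of 33 (36.4%, 22.2 to 53.4), with 5 of 5 at Twist1 and 2 each at Tbx18 and Zic1. Posterior Hox genes had 5 of 13 (38.5%, 17.7 to 64.5), all outside replicate 1 hotspots, with 2 each at Hoxa13 and Hoxd8. Muscle genes had 7 of 33, with Acta1 3 and Pax7 2, and epidermis genes 4 of 15, at Krt1 and Lor. Endothelial and pericyte genes had 4 of 37 (10.8%), nearest to Cdh5 and Flt1, and microglia and macrophage genes 4 of 25, with 3 nearest to Ptprc. Those 3 lay 213743 to 508883 bp from a TSS of Ptprc, and the 2 of Cdh5 lay 39194 and 625214 bp away. Liver genes had 0 of 17, erythroid genes 2 of 10, lymphocyte and anterior Hox genes 1 each of 10 and 7, and housekeeping genes 3 of 20.

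Across chromosomes, the share of distal peaks that were members ran from 9.16% on chromosome 19 (Wilson interval 7.58 to 11.03) and chromosome 17 to 14.0% on chromosome 3 (12.7 to 15.6), where the rows at Mir124a-2, Gm30340, Sox2 and Zfhx4 lie. Chromosomes 8 and 12 followed with 12.6% and 12.3%. All 19 autosomes carried members, from 99 on chromosome 19 to 366 on chromosome 2.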

How the data were processed

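The authors deposited 1 peak list and 1 hotspot list per replicate on mm10. Per the labels' protocols the libraries were made from nuclei, and the aligner, peak caller and calling limits stand in none of the labels or files used. The authors' signal of a peak was used as deposited, to rank and filter within a list. Hotspots carry the −log10 of a q-value as the authors deposited it. Column 7 was read as a whole number. Peaks on chromosomes 1 to 19 were kept, with repeated positions counted once (22 and 24). TSSs came from GENCODE M21 and sequence, soft-masking and copies of the central 31 bases from the RefSeq genome. The 28 motifs are consensus strings, searched on both strands. Shares carry 95% Wilson intervals, differences Newcombe or normal intervals, and motifs 99.8% each, so 95% over all 28. These cover counting error only, and no p-value was computed because peaks are not replicates. Standardized background is weighted to the members' signal classes. Interval functions were tested on simulated data at 95%, the standardized one on normal values and not on rare shares. Members, lists, motifs and rules were chosen with earlier results of these data known. Named were the 12 strongest members, the 2 strongest with each called motif, the 10 genes nearest to most members and up to 3 genes per list; 1 of the list genes, Ighm, was not matched. Some genes and sequences that these rules select are not reported here. Other features singled out were chosen after their values were seen. Python 3.11.15, pandas 2.3.3, numpy 2.4.6, scipy 1.17.1 and numba 0.67.0 were used.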

Additional observations from a re-analysis of the deposited data

How the results depend on the processing

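The number of members, 4250, follows the limits: it was 1063 and 328 with signal limits of 24 and 30, 14535 with 12, 2067 with no replicate 1 peak within 150 bp, 7586 when 75 bp of overlap was required to count as shared, 2627 at 2500 bp from a TSS, and 1916 without members in replicate 1 hotspots. At a limit of 30 the mean GC difference (-0.057) and the intergenic difference (-2.95) had intervals that include 0, as had the intergenic one at 2500 bp from a TSS (-0.717). The difference in repeated central bases, not called as reported, was called at limits of 24 (1.33 points) and 30 (3.96), with no replicate 1 peak within 150 bp (0.730), outside replicate 1 hotspots (0.890), with the shortened replicate 1 list (0.351) and, in the other direction, without peaks soft-masked over 50% or more (-0.477). The number of called motifs was 10, and 5 and 2 at limits of 24 and 30. Motif signs turned at a limit of 24 for GATA (-0.125) and NFI (0.0743), and at 30 for GATA (-0.359), NFI (1.28), OTX (-0.672) and the homeodomain motif (-0.00819). CTCF and RFX kept their direction and call under all 14 alternatives, though RFX shrank to -1.62 points (-2.43 to -0.703) with the shortened replicate 1 list. Among the 14, here and for NRF1 above, the alternative requiring a replicate 2 hotspot removed no peak and so could change nothing. Stricter limits leave fewer peaks; beyond that the cause was not tested. Leaving out a library was not possible, since the rule needs both. No paired analysis was possible because there is 1 group. Read depth is unknown and limits every value.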

Other observations

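The deposited signal column is written with a decimal point for some peaks and without one for others. The point was present for 723 of 4250 members (17.01%, Wilson interval 15.9 to 18.2) and 963 of 34936 background peaks (2.76%, 2.59 to 2.93), a difference of 14.3 percentage points (13.1 to 15.4). Among members it was present for 21.7% inside and 11.3% outside replicate 1 hotspots. Of the members written with a point, 41.4% overlapped another replicate 2 peak, against 9.50% of the other members. In the background these shares were 73.9% and 3.23%. No label or file used here says what the point stands for.

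In windows of 500 kb, 2062 of the 4220 that held a distal replicate 2 peak of signal 18 or more also held a member (48.9%), with a median of 1 member and 32 at most.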
